A study of Mus musculus with 9 samples.

Results

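The genes described here are those that were detected in every library of the comparison between anti-PD-1 and Control in tumour-infiltrating ICOS+ CD4 T cells. A gene was taken as consistently detected when it had at least 5 counts per 1000000 gene counts (CPM) in all 6 libraries, without regard to which group was higher. This held for 2066 of the 45808 genes in the table. A further 4782 genes had enough counts to be tested but lay under 5 CPM in at least 1 library, so a gene that was nearly silent in a single mouse is not among the 2066. The cells came from C57BL/6J mice carrying MC38 tumours, grown from a mouse colon adenocarcinoma line, and were sorted on day 12 after injection of the tumour cells. Each library came from 1 mouse, with 3 Control mice and 3 mice given anti-PD-1, and all 6 mice shared the strain, the tumour line and the sort. The labels do not state what the Control mice received, which anti-PD-1 clone was injected or at what dose, or how many cells were sorted per mouse. The sort took CD4 T cells with ICOS on their surface, which includes regulatory and conventional CD4 T cells, so each value is an average over both.

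PD-1 is an inhibitory receptor of activated T cells. When its ligands PD-L1 or PD-L2 bind, phosphatases recruited to its tail dampen signalling from the T cell receptor and from CD28, and an antibody that blocks it removes this brake. ICOS is a costimulatory receptor that appears on CD4 T cells after activation, and in tumours it is carried by both helper cells and Foxp3+ regulatory T cells. Signals from the T cell receptor run through CD3, kinases such as Lck and Zap70, and then NFAT, AP-1 and NF-kappaB, and they quickly induce genes such as those of the Nr4a family, Cd69 and the NF-kappaB inhibitors.

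Gene counts per library ranged from 25530300 to 41508600, so that 3 counts correspond to 0.0723 to 0.118 CPM and 5 CPM to 128 to 208 counts. The libraries were made with an amplification kit for single cells because the sorted cells yielded little RNA. The 2066 genes held 74.3% to 75.9% of the gene counts in Control libraries and 75.8%, 80.8% and 75.4% in anti-PD-1 replicates 1, 2 and 3. Genes at 5 CPM or more numbered 6258, 6309 and 6051 in Control and 5496, 4209 and 5878 with anti-PD-1, and the group difference had an exact two-sided permutation p of 0.1, the smallest that 3 against 3 allows. Anti-PD-1 replicate 2 stood apart: it had the fewest detected genes, a normalization factor by the trimmed mean of M values (TMM) of 0.742 against 1.03 to 1.11 in the other 5 libraries, and 17.4% of gene counts from the mitochondrial genome against 9.93% to 14.1%. Across the 2066 genes, log2 CPM correlated at 0.507 to 0.546 between this library and each of the others, and at 0.614 to 0.681 among the other 5. Some counts and list medians below are given with and without it. Single genes are given by their value in each library, mostly with no fit that leaves it out.

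The CD4 T cell identity of the libraries was seen in every mouse. Of 12 CD4 T cell markers, 11 were at 5 CPM or more in all 6 libraries, and their sum was 5078 to 7233 CPM in Control and 6108 to 7558 CPM with anti-PD-1. Cd4, the coreceptor used in the sort, stood at 324, 599 and 594 CPM in Control and 808, 616 and 719 CPM with anti-PD-1. Icos stood at 1851, 2042 and 2866 CPM and 2547, 2876 and 2869 CPM. Cd4 did not overlap between the groups and was higher with anti-PD-1, but the highest Control and the lowest anti-PD-1 library were nearly equal, and Icos overlapped. Of the 2 CD8 chains, Cd8a had no count in any library, and Cd8b1 was at 0 CPM in every Control library while the anti-PD-1 libraries had 0.118, 0 and 125 CPM, so that 1 anti-PD-1 library held it in quantity. Pdcd1, the gene of PD-1 itself, was not consistently detected, at 89.5, 46.5 and 0.140 CPM in Control and 164, 24.4 and 116 CPM with anti-PD-1. An antibody binds the PD-1 protein and need not change Pdcd1 RNA, so these values do not check the treatment label.

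Other cells could also be present in a sort. Of 22 macrophage and monocyte markers, 10 to 13 were at 5 CPM or more in a Control library and 4 to 13 in an anti-PD-1 library, with sums of 441.9 to 946 CPM and 276 to 940 CPM, and only Lyz2 was consistently detected. The 13 dendritic cell markers summed to 130 to 467 CPM in Control and 530 to 991 CPM with anti-PD-1 without overlap. Within that list Flt3, Clec9a, Siglech, Cd209a and Batf3 were at 0 in all 6 libraries. The 12 fibroblast markers summed to 1488 to 2431 CPM in Control and 716 to 994 CPM with anti-PD-1, also without overlap. That list includes Thy1, which T cells express themselves, and without it the sums still did not overlap, at 1380.3, 1632 and 1337 CPM and 615, 979.6 and 385 CPM, while Pdgfrb and Fap were at 0 in all libraries. The 10 B cell markers summed to 415.6 to 728 CPM in Control and 405.6 to 962 CPM with anti-PD-1, most of it Ighm, while Cd79a, Pax5 and Blk were at 0 in all 6 libraries. Of 8 NK cell markers, 6 were at 0 in every library, and the sum was 84.4, 0.0640 and 28.8 CPM in Control and 36.8, 0.0910 and 0.0580 CPM with anti-PD-1. Epithelial markers were at most 0.0838 CPM in Control, and with anti-PD-1 reached 57.8 CPM in replicate 1, almost all Epcam, and 156 CPM in replicate 3, almost all Lgals4. In such bulk samples, fewer cells of a type and less RNA per cell cannot be told apart.

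No gene passed the threshold in the main comparison. With edgeR's quasi-likelihood test and Benjamini-Hochberg adjustment, 0 of 6848 tested genes (0%) had an adjusted p under 0.05, and the adjusted p was 0.9998 for every one of the 2066 consistently detected genes. At an unadjusted p under 0.05 there were 270 of 6848 tested genes (3.94%), of which 114 were higher with anti-PD-1 (1.66%) and 156 lower (2.28%). Among the consistently detected genes, 70 of 2066 (3.39%) had an unadjusted p under 0.05, 64 higher (3.1%) and 6 lower (0.29%). A gene pulled under 5 CPM in any anti-PD-1 library leaves this set, and those libraries had fewer genes at 5 CPM. The rule can therefore remove lower genes more often than higher ones, and the splits are not directly comparable. With no adjusted p under the threshold, the unadjusted p of a gene below serves only to order genes. With DESeq2, 863 of 9226 tested genes passed and 0 of the 2066 did, with 31 of them left without an adjusted p by that tool and the lowest adjusted p among the others at 0.064. With limma voom and sample quality weights, 6 genes passed, all of them consistently detected and all higher with anti-PD-1. They were Gzmb (log2 fold change 1.43, adjusted p = 0.000402), Ccr2 (1.10, 0.000411), Gimap4 (0.82, 0.00101), Foxp3 (0.48, 0.00175), Wnk1 (0.50, 0.0107) and Clec2d (0.92, 0.0190). Wnk1, a kinase that regulates ion transport, is named after its values were seen.

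The direction of the consistently detected genes depended on the scaling. Their median fitted log2 fold change was 0.29 against 0.09 over all tested genes, and 1368 (66.2%) had a positive fitted change against 3652 (53.3%) of all tested. When the TMM factors were computed on the 2066 genes themselves, the median was 0.03, 51.3% were positive, and the split at an unadjusted p under 0.05 went from 64 higher and 6 lower to 25 higher and 19 lower. Scaling to library totals gave 27 and 17, and relative log expression factors (RLE) gave 101 and 3 with a median of 0.47. Without anti-PD-1 replicate 2, the split was 34 higher and 25 lower and the median 0.08. Fitted values below are from TMM factors over all tested genes unless another scaling is named, and are to be read against the median of 0.29.

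**Figure D1:**
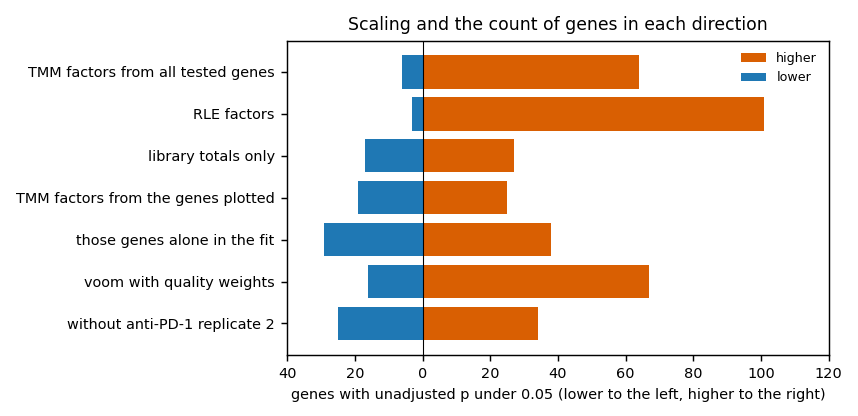
Number of the 2066 consistently detected genes with an unadjusted p under 0.05, higher with anti-PD-1 to the right and lower to the left, under 7 ways of scaling, testing or choosing libraries. The split runs from 101 higher and 3 lower with RLE factors to 25 higher and 19 lower with TMM factors from these genes, and no bar includes a gene past the adjusted threshold except with voom and quality weights, where 6 genes passed.

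Another description used CPM alone and no model. The lowest library of one group lay above the highest of the other for 195 of the 2066 genes (9.44%), 110 of them higher with anti-PD-1 (5.32%) and 85 lower (4.11%). Over all tested genes the same held for 772 (11.3%), 245 higher (3.58%) and 527 lower (7.7%). The total share among the consistently detected genes was thus close to that of all tested genes. The share of lower genes was smaller among them, and the rule of 5 CPM in every library can itself remove lower genes. In CPM scaled by TMM factors, 160 rather than 110 genes were higher and 51 rather than 85 lower without overlap. The factors were larger in every Control library than in every anti-PD-1 library. The scaling therefore raised anti-PD-1 values against Control values, and the shift in these counts followed from it. Genes named singly below come mainly from these 195.

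**Figure D2:**
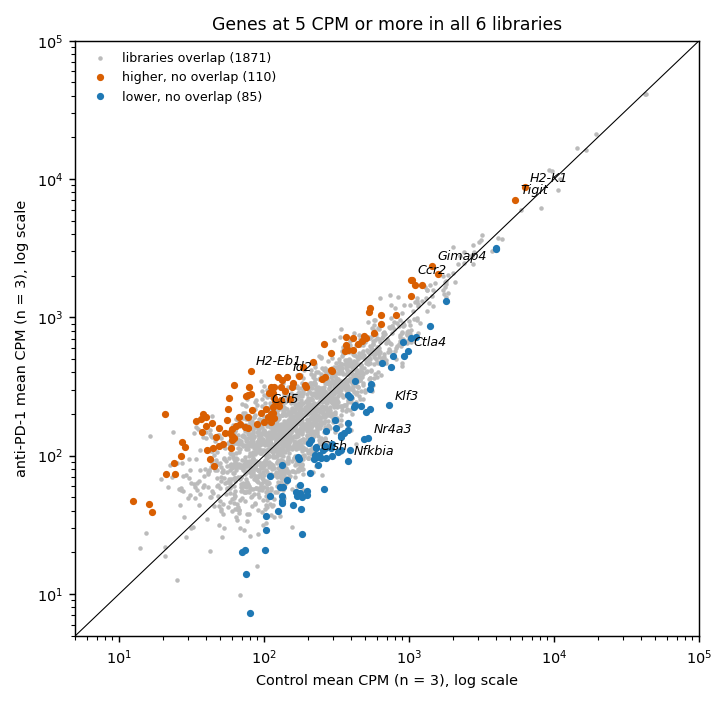
Mean CPM of the 3 anti-PD-1 libraries against the mean of the 3 Control libraries for the 2066 consistently detected genes, both axes on a log scale, with the line of equality. The 110 genes that were higher without overlap and the 85 that were lower are coloured; H2-K1 and Tigit lie at the high end and Nr4a3, Nfkbia and Klf3 below the line.

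The spread between mice limited how small a difference could be seen. In edgeR's fit the common biological coefficient of variation, estimated over all tested genes, was 1.64 (as a ratio). The percentages below are instead of CPM within each group, so they do not give the limit of that test. The median coefficient of variation of CPM (SD over mean) was 44.4% among the 3 Control mice and 54.1% among the 3 anti-PD-1 mice. For genes whose lowest library lay between 5 and 20 CPM it was 72.5% and 79.2% (505 genes), and for genes at 1000 CPM or more in every library 17.3% and 20.7% (50 genes). The highest library exceeded the lowest by a median of 5.28-fold over all 2066 genes, 17.3-fold in the lowest of these levels and 1.80-fold in the highest. Only 141 genes varied by under 2-fold over the 6 libraries, and 557 varied by over 10-fold. Anti-PD-1 replicate 2 was the lowest library for 466 genes and the highest for 501, against 292 to 343 and 287 to 370 for the others. Near the threshold, Taf1 and Puf60 were inside at 5.01 and 5.04 CPM in their lowest library, and Xrn1, Trappc3 and Ahcyl2 outside at 4.99, 4.97 and 4.96 CPM.

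**Figure D3:**
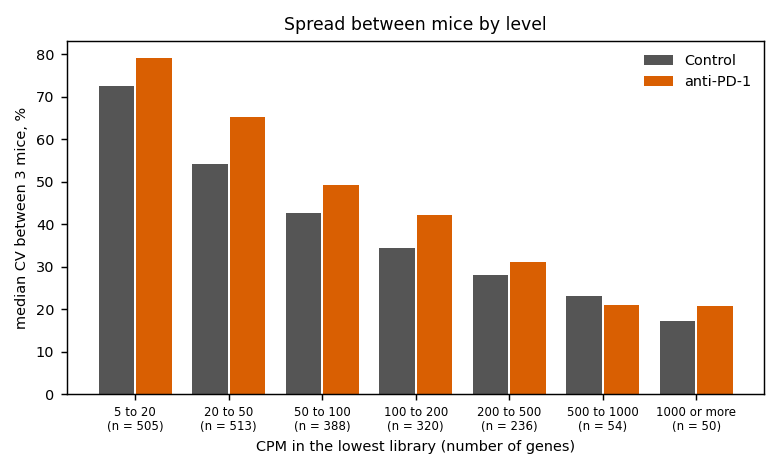
Median coefficient of variation of CPM between the 3 mice of each group (percent, bars from 0) for the consistently detected genes, binned by CPM in their lowest library, with the number of genes under each bin. The bars go down from 72.5% (Control) and 79.2% (anti-PD-1) at 5 to 20 CPM to 17.3% and 20.7% at 1000 CPM or more.

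H2-K1 and Nfkbia are shown first with their promoters, because H2-K1 was the most abundant gene that was higher without overlap and Nfkbia was among the lower genes with the largest differences, and both are textbook targets of NF-kappaB. H2-K1 (ENSMUSG00000061232, protein coding, GRCm38 chromosome 17, 33996017 to 34000347, minus strand) encodes a classical MHC class I heavy chain, and Nfkbia (ENSMUSG00000021025, protein coding, chromosome 12, 55489410 to 55492647, minus strand) encodes IkappaB-alpha, which holds NF-kappaB in the cytoplasm. The 250 bases before each start are given 5′ to 3′ on the gene's strand from RefSeq, build GRCm38.p6, at chr17:34000348-34000597 and chr12:55492648-55492897, with matches to GGGANNNNCC on either strand in capitals, a pattern of the NF-kappaB type in which N is any base.
H2-K1: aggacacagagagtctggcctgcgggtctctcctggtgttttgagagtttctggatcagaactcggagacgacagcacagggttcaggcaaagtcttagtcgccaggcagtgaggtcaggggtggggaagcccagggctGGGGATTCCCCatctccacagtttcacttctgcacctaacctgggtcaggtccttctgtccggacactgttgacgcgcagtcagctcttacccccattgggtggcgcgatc
Nfkbia: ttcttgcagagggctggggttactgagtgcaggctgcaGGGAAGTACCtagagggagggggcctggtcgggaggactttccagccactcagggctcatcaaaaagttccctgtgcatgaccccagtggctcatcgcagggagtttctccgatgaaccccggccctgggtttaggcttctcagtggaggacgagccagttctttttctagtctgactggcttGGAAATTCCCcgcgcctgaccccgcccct
H2-K1 holds overlapping matches on both strands that begin 111 and 110 bases before the start, and Nfkbia holds matches that begin 212 and 29 bases before it. The same letters occurred in 24.2% of the 1563 promoters found for the consistently detected genes and in 17.4% of all 27025 promoters of this length. They occurred in 22.5% of 80 promoters of genes that were higher without overlap and in 26.2% of 61 promoters of genes that were lower. A match describes letters and is not a measured binding site.

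The values of these genes lay on opposite sides. H2-K1 stood at 6417, 5560.2 and 6812 CPM in Control replicates 1, 2 and 3 and 8480.0, 8274 and 9394 CPM in anti-PD-1 replicates 1, 2 and 3. All 3 anti-PD-1 libraries were above all 3 Control libraries, with means of 6263 ± 640.0 and 8716 ± 596 CPM (SD, n = 3 each), a 1.39-fold ratio. The fitted log2 fold change was 0.70 ± 0.25 (SE), and 0.45 with TMM factors from the consistently detected genes. Nfkbia stood at 388, 234 and 522 CPM in Control and 36.9, 136 and 103 CPM with anti-PD-1. Every anti-PD-1 library was below every Control library, the means were 381 ± 144 and 91.9 ± 50.4 CPM, and the fitted log2 fold change was -1.75 ± 0.77. Class I genes are near-identical copies of one another in part, and reads placed at more than one site were left uncounted, so the level of H2-K1 is uncertain to that extent. Neither gene passed the adjusted threshold.

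In the list of MHC class I presentation genes, which includes H2-K1, 16 of 18 in the table were consistently detected, 11 of these had a positive fitted change, and the median was 0.33, or 0.10 with TMM factors from the consistently detected genes and 0.18 when replicate 1 of either group was left out. H2-D1, the other classical class I heavy chain of this strain, stood at 833, 1098 and 822 CPM in Control and 1031, 1202 and 1438 CPM with anti-PD-1. Tap1, a subunit of the peptide transporter, stood at 125, 196 and 245 CPM and 567, 207 and 473 CPM. Both had higher anti-PD-1 means with overlapping libraries, and neither overlapped in CPM scaled by TMM factors. Calr, a chaperone of class I assembly, was lower without overlap at 489, 729 and 413 CPM against 229.8, 404 and 355 CPM, and overlapped once TMM factors were applied. H2-Eb1 encodes a class II chain, which mouse T cells normally do not make in quantity. It stood at 9.64, 112 and 120.7 CPM in Control and 324, 614 and 294 CPM with anti-PD-1, a gap of 2.43-fold between the nearest libraries and the smallest unadjusted p of the named genes (0.00128, edgeR). The summed dendritic cell markers were higher with anti-PD-1 in the same libraries, but H2-Eb1 is itself one of them, and without it the sums overlapped at 458, 18.3 and 199.5 CPM in Control and 230.0, 377 and 236 CPM with anti-PD-1. Other class II genes did not share the order. Cd74, the class II invariant chain, stood at 307, 9.33 and 117 CPM in Control and 63.6, 190.5 and 81.7 CPM with anti-PD-1. H2-Aa stood at 20.2, 0.0643 and 0.0838 against 64.1, 161 and 7.42 CPM, and H2-Ab1 at 59.5, 1.61 and 7.27 against 0, 0.121 and 73.5 CPM. The part of other cells in the H2-Eb1 values was not tested.

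**Figure D4:**
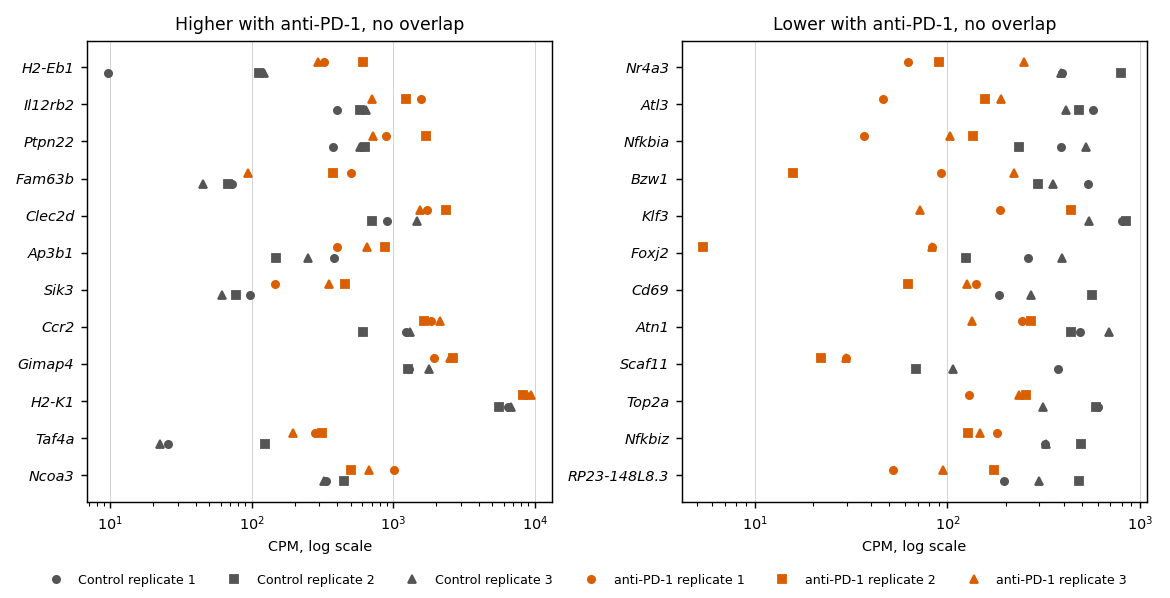
CPM (log scale) in each of the 6 libraries for the 12 consistently detected genes with the smallest unadjusted p among those higher without overlap (left) and the 12 among those lower (right); grey marks are Control and orange marks anti-PD-1, with a marker shape for each replicate number. H2-Eb1 lies at 9.64 to 120.7 CPM in Control and 294 to 614 CPM with anti-PD-1, and Nr4a3 at 387 to 794 and 62.7 to 250.1 CPM.

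Several receptors and signalling genes of T cells were among those higher without overlap. Il12rb2, the signalling chain of the interleukin-12 receptor that helps form Th1 cells, stood at 397, 577 and 642 CPM in Control and 1563, 1230.2 and 709 CPM with anti-PD-1. Ccr2, a chemokine receptor for CCL2, stood at 1229.5, 611 and 1308 CPM and 1853, 1652 and 2127 CPM. Ptpn22, a phosphatase that restrains signalling from the T cell receptor, stood at 377, 628 and 576 CPM and 886, 1699.8 and 717 CPM. In each, the highest Control library lay 1.10-fold to 1.26-fold below the lowest anti-PD-1 library, while the fitted log2 fold changes were 1.36 ± 0.42 for Il12rb2, 1.04 ± 0.36 for Ccr2 and 1.39 ± 0.44 for Ptpn22. Clec2d, a lectin-like ligand of an NK cell receptor, stood at 906, 709 and 1471 CPM in Control and 1716, 2356 and 1548 CPM with anti-PD-1. Gimap4, a GTPase of lymphocytes, stood at 1281, 1269 and 1773 CPM and 1929.9, 2651 and 2519 CPM. Gimap4 was tight in both groups, and the highest Control library lay just under the lowest anti-PD-1 library. The gene of Il12rb2 overlaps Serbp1 on the opposite strand in the annotation, and H2-Eb1 and Ptpn22 also have partners there.

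The remaining 5 genes of that selection are not specific to T cells. Ap3b1, a subunit of the adaptor that sorts proteins to lysosome-related organelles, stood at 383, 148 and 249.03 CPM in Control and 396, 872 and 652 CPM with anti-PD-1. Sik3, a salt-inducible kinase, stood at 96.2, 77.1 and 61.5 CPM and 146, 451.1 and 348 CPM. Ncoa3, a coactivator of nuclear receptors, stood at 331, 446.98 and 323 CPM and 1004, 498 and 674 CPM. Anti-PD-1 replicate 1 was the lowest of its group for Ap3b1 and Sik3 and the highest for Ncoa3. Taf4a, a subunit of the general transcription factor TFIID, stood at 25.5, 124 and 22.4 CPM and 279.6, 314 and 194 CPM. Fam63b, a deubiquitinase, stood at 72.0, 67.5 and 45.4 CPM and 503, 375 and 94.4 CPM. Taf4a had 1 high Control library and Fam63b 1 low anti-PD-1 library, so that the largest ratios of means (4.58-fold and 5.26-fold) came with wide spread. All 12 genes kept their separation in CPM scaled by TMM factors, but this was fixed in advance. Every Control library had a larger factor (1.06 to 1.11) than every anti-PD-1 library (0.742 to 1.04). Dividing by these factors can only widen the gap of a gene that is already higher with anti-PD-1.

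Among the genes that were lower without overlap were several of T cell activation. Nr4a3 (ENSMUSG00000028341, chromosome 4, 48045153 to 48086447, plus strand), a nuclear receptor induced within hours of T cell receptor signalling, stood at 392, 794 and 387 CPM in Control and 62.7, 90.1 and 250.1 CPM with anti-PD-1. Its fitted log2 fold change was -1.78 ± 0.66, with the smallest unadjusted p of the lower genes (0.0102, edgeR), and its highest anti-PD-1 library lay 1.55-fold under its lowest Control library. Cd69, an early activation antigen that also keeps T cells in tissue, stood at 184, 561 and 270.4 CPM and 139.9, 62.8 and 126 CPM. Nfkbiz, an atypical IkappaB protein of the nucleus, stood at 322, 493 and 324 CPM and 181, 128 and 148 CPM. Control replicate 2 was the highest library for all 3, and no anti-PD-1 library reached a Control library for any of them. Klf3, a transcriptional repressor of the Kruppel-like family, stood at 805, 843 and 541 CPM in Control and 188, 437 and 71.9 CPM with anti-PD-1, and overlapped once TMM factors, which scale anti-PD-1 replicate 2 up, were applied.

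Of the other lower genes, Top2a, the DNA topoisomerase of dividing cells, stood at 606, 589 and 315 CPM in Control and 129, 256 and 236 CPM with anti-PD-1. Atl3, an endoplasmic reticulum GTPase, stood at 568, 478 and 412 CPM and 46.2, 157 and 190.2 CPM. Bzw1, a regulator of translation, stood at 537, 295 and 351 CPM and 92.1, 15.9 and 221 CPM. Atl3 was separated by 2.16-fold between the nearest libraries, while Top2a overlapped after TMM scaling. Scaf11, linked to splicing, stood at 374, 68.8 and 107 CPM and 29.6, 22.1 and 29.9 CPM. Foxj2, a forkhead transcription factor, stood at 260.1, 126 and 392 CPM and 82.8, 5.41 and 83.3 CPM. Foxj2 was a member by a narrow margin, since anti-PD-1 replicate 2 lay just over 5 CPM. Atn1, a transcriptional corepressor, stood at 488, 439.7 and 691 CPM and 244, 270.1 and 134 CPM, and the clone-named RP23-148L8.3 at 197, 479 and 297 CPM and 51.9, 174 and 94.99 CPM. In CPM scaled by TMM factors, 9 of the 12 lower genes kept their separation, and Klf3, Top2a and RP23-148L8.3 did not. Only lower genes could lose their separation by this scaling, so this count cannot be set against that of the higher genes. The summed fibroblast markers were lower with anti-PD-1 in the same libraries, and their part in these values was not tested.

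The gene lists place these genes among their relatives. No member of any list passed the adjusted threshold, and a list is given by its counts beside the 66.2% of positive changes and the median of 0.29 over all consistently detected genes. Counts without overlap are to be read against 5.32% higher and 4.11% lower among those genes. Counts at an unadjusted p under 0.05 (edgeR) are to be read against 3.1% higher and 0.29% lower. For 12 lists the sign of the median depended on the scaling. With TMM factors from the consistently detected genes, the medians turned negative for regulatory T cell identity (0.15 to -0.14), costimulation (0.12 to -0.12), interleukin-2 and JAK-STAT signalling (0.01 to -0.21), quiescence (0.01 to -0.21), tissue and follicular helper factors (0.09 to -0.25), actin cytoskeleton (0.17 to -0.12), heat shock (0.07 to -0.22), the unfolded protein response (0.05 to -0.19) and splicing (0.04 to -0.16). With RLE factors the medians turned positive for immediate response (-0.05 to 0.14), NF-kappaB (-0.17 to 0.08) and translation factors (-0.16 to 0.04). Other tests turned the medians of further lists negative. With limma trend on the consistently detected genes alone these were MHC class I presentation (-0.035), interferon-stimulated (-0.028), cytotoxic (-0.055), glycolysis (-0.018) and chemokine receptor and adhesion genes (-0.0055). With voom and quality weights they were S phase (-0.099), mitochondrial genome (-0.028) and proteasome genes (-0.073).

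**Figure D5:**
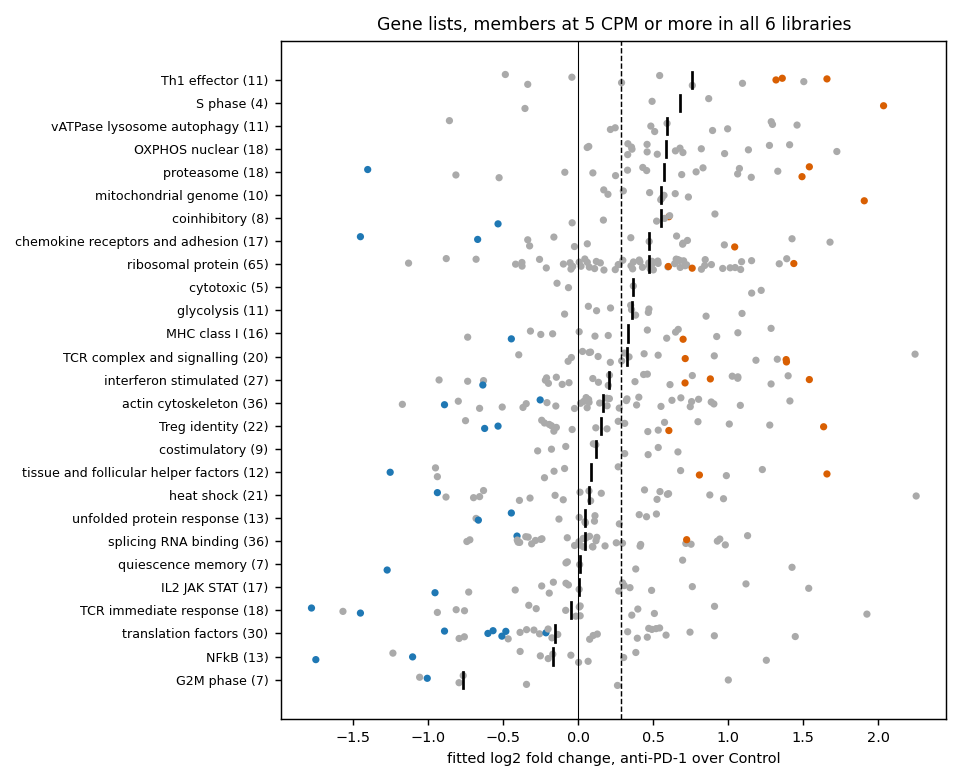
Fitted log2 fold change (anti-PD-1 over Control) of the consistently detected members of each gene list, ordered by the list median (black bar), with the number of members in brackets; orange and blue points are members that were higher or lower without overlap in CPM. The dashed line is the median of all 2066 genes, 0.29, and the list medians run from -0.77 for the G2/M genes to 0.76 for the Th1 genes.

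Inhibitory receptors were not uniform. Of 18 in the table, 8 were consistently detected, 6 had a positive fitted change and the median was 0.55 (0.35 with TMM factors from the consistently detected genes, 0.19 without Control replicate 1 and 0.30 without anti-PD-1 replicate 1). Tigit, an inhibitory receptor that binds CD155 (chromosome 16, 43648867 to 43664146, minus strand), stood at 4530.5, 5337 and 6352 CPM in Control and 6581, 6389 and 8247 CPM with anti-PD-1. Ctla4, the inhibitory counterpart of CD28 (chromosome 1, 60887000 to 60915832, plus strand), stood at 755, 1124 and 1086 CPM and 590.5, 653 and 464 CPM. Tigit was higher without overlap by the narrowest of margins, 1.01-fold between the nearest libraries, and Ctla4 lower without overlap by 1.16-fold. The fitted log2 fold changes were 0.60 ± 0.26 for Tigit and -0.53 ± 0.43 for Ctla4, and Ctla4 overlapped after TMM scaling. Cd5, which tunes T cell receptor signals, overlapped at 190.1, 718 and 313 CPM and 764, 345 and 527 CPM.

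For costimulatory receptors, 9 of 19 were consistently detected, 6 had a positive fitted change and none was separated between the groups. Cd28, the principal costimulatory receptor, was among the most even genes, at 3539, 3032 and 2476 CPM in Control and 3410.5, 3843 and 3262 CPM with anti-PD-1. Cd27, of the TNF receptor family, varied far more, at 279, 372 and 210.2 CPM and 322, 180.3 and 737 CPM. Both overlapped.

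Regulatory T cell genes were abundant in both groups. Of 29 in the table, 22 were consistently detected and 12 had a positive fitted change. The median was 0.15, or -0.01 without anti-PD-1 replicate 1. In edgeR's test 4 had an unadjusted p under 0.05, all higher, against 3.1% of all consistently detected genes. They were Tigit, Lrrc32, Capg and Klrg1. With TMM factors from the consistently detected genes, none of these 4 stayed under 0.05 (0.0515 to 0.0844, edgeR). Foxp3, the transcription factor that defines the lineage, stood at 2362, 2727 and 3231 CPM in Control and 3186, 2841 and 3901 CPM with anti-PD-1. Il2ra, the alpha chain of the interleukin-2 receptor, stood at 5987, 8761 and 9748 CPM and 6727, 5288 and 6489.7 CPM. Ikzf2, the transcription factor Helios, stood at 1779, 1948 and 1664 CPM and 1759, 1811 and 1637 CPM. All 3 overlapped, and Ikzf2 differed least, with means of 1797 ± 143 and 1736 ± 89.2 CPM. The fitted change of Foxp3 was 0.46 ± 0.30 with TMM factors and 0.23 with factors from the consistently detected genes; in TMM-scaled CPM its libraries did not overlap. Foxp3 shares its position with genes on the opposite strand in the annotation.

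Other genes of that list were more variable. Capg, an actin capping protein high in regulatory T cells, was higher without overlap at 105, 97.1 and 131 CPM in Control and 201, 158 and 577 CPM with anti-PD-1, with replicate 3 far above the other 2. Il1rl1, the interleukin-33 receptor ST2, was lower without overlap at 283, 263 and 253 CPM and 156, 120.98 and 175 CPM, and tight in both groups. Lrrc32, which anchors latent TGF-beta, stood at 125, 369 and 224 CPM and 846, 221 and 506 CPM. Klrg1, a receptor of differentiated T cells, stood at 629, 804 and 1097 CPM and 1356, 1813 and 1011 CPM. The last 2 overlapped, with unadjusted p of 0.0367 and 0.0134 in edgeR's test.

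Th1 effector genes had the highest median of the lists other than those of cell type markers, 0.76, and 0.57 with TMM factors from the consistently detected genes. Of 24 in the table, 11 were consistently detected and 8 had a positive fitted change. Without overlap, 3 were higher and none lower, against 5.32% and 4.11% of all consistently detected genes. Besides Il12rb2, these were Ccl5, a chemokine, at 98.7, 49.9 and 161 CPM in Control and 177, 242 and 235 CPM with anti-PD-1, and Id2, a regulator of effector differentiation, at 96.3, 277 and 59.7 CPM and 370.3, 458 and 289.8 CPM. The sum over all 24 genes was 2631 to 3605 CPM in Control and 3805 to 4864 CPM with anti-PD-1, without overlap. Without Il12rb2 the sums overlapped, at 2234, 2738 and 2963 CPM in Control and 3301, 2575 and 3209 CPM with anti-PD-1. Leaving out each library in turn gave medians from 0.46 (without Control replicate 2) to 0.93.

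Only 5 of 20 cytotoxic genes were consistently detected, and none was separated in CPM. Gzmb, the protease granzyme B (chromosome 14, 56258838 to 56262260, minus strand), stood at 318, 736 and 1164 CPM in Control and 1529, 1045 and 1769.6 CPM with anti-PD-1. Control replicate 3 exceeded anti-PD-1 replicate 2, so the groups overlapped by 1 pair, and they did not overlap in CPM scaled by TMM factors. The means were 739 ± 423 and 1448 ± 369 CPM, and the fitted log2 fold change was 1.16 ± 0.41 (unadjusted p = 0.00652, edgeR). Srgn, the proteoglycan that packs granules, stood at 1172, 1295 and 1009.6 CPM and 904, 1798 and 899.5 CPM, and Serpinb9, the inhibitor of granzyme B, at 19.3, 146 and 55.8 CPM and 133, 95.9 and 224 CPM. Both overlapped, and the fitted sign of Srgn turned in some settings. The sum over all 20 genes was 2052 to 2737 CPM in Control and 3326 to 3943 CPM with anti-PD-1, without overlap. Without Gzmb the sums overlapped, at 1733, 1759 and 1573 CPM and 1797, 2898 and 1677 CPM. Of 8 NK cell markers, Ncr1, Klrb1c, Klra8, Klra1, Klre1 and Eomes were at 0 in every library. Klra4 stood at 84.4 CPM in Control replicate 1 and 36.8 CPM in anti-PD-1 replicate 1, and Gzma at 28.8 CPM in Control replicate 3, while both were under 0.1 CPM in their other libraries. Of the CD8 chains, Cd8b1 reached 125 CPM in anti-PD-1 replicate 3, the library with the highest Gzmb, and Cd8a was at 0. The part of other cells in the cytotoxic values was not tested.

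Genes of the T cell receptor complex and its proximal signalling were well covered. Of 35 in the table, 20 were consistently detected and 17 had a positive fitted change. Without overlap, 3 were higher and none lower, against 5.32% and 4.11% of all consistently detected genes. The median was 0.32 (0.08 with TMM factors from the consistently detected genes and 0.56 without Control replicate 3). Those separated were Cd4, Ptpn22 and Cd3g. Cd3g, a chain of the CD3 complex, stood at 284, 115 and 256 CPM in Control and 294, 579 and 561 CPM with anti-PD-1, with a gap of 1.03-fold between the nearest libraries.

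Of 32 immediate response genes downstream of the receptor, 18 were consistently detected and 8 had a positive fitted change. Nr4a3 and Cd69 were lower without overlap and none was higher, against 4.11% and 5.32% of all consistently detected genes, so a count of 0 higher in a list of this size is near the overall share. Nr4a1, a relative of Nr4a3, stood at 182, 685 and 586 CPM in Control and 292, 139 and 336 CPM with anti-PD-1, and Zfp36, which degrades AU-rich mRNA, at 74.9, 194 and 486 CPM and 114, 70.7 and 32.9 CPM. Both had lower means with anti-PD-1 and overlapped because Control replicate 1 was low. The list median was -0.05, and -0.50 without anti-PD-1 replicate 2. In the NF-kappaB list, 13 of 26 were consistently detected, 5 had a positive fitted change, and only Nfkbia and Nfkbiz were separated, both lower. Birc2, a ubiquitin ligase of that pathway, overlapped at 15.5, 107 and 111 CPM and 41.95, 230.1 and 170.4 CPM.

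Of 27 genes of interleukin-2 and JAK-STAT signalling, 17 were consistently detected and 9 had a positive fitted change. Cish, an inhibitor induced by STAT5, was lower without overlap at 328, 129 and 219.7 CPM in Control and 125, 91.6 and 85.6 CPM with anti-PD-1, and overlapped after TMM scaling. Il2rg, the common gamma chain, overlapped at 1464, 1692 and 1987 CPM and 1287, 2557 and 2099.9 CPM. Among 28 chemokine receptor and adhesion genes, 17 were consistently detected and 11 had a positive fitted change. Ccr2 was higher without overlap, while Cd44, the hyaluronan receptor, was lower at 362, 441 and 462 CPM and 251, 166 and 281 CPM, as was Cd69. Itgb7, an integrin chain, overlapped at 15.7, 329 and 63.1 CPM and 191, 577 and 236 CPM. The median of this list was 0.47, 0.22 without anti-PD-1 replicate 2, and 0.12 with TMM factors from the consistently detected genes.

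Quiescence genes were mostly missing from the 2066: 7 of 20 were consistently detected, 4 had a positive fitted change, and Klf3 alone was separated. Btg1, which restrains proliferation, overlapped at 48.3, 194 and 205 CPM in Control and 279, 175 and 34.6 CPM with anti-PD-1. Of 20 transcription factors of tissue and follicular helper T cells, 12 were consistently detected, 6 had a positive fitted change, and Maf and Id2 were higher and Ikzf3 lower without overlap. Maf, a factor of interleukin-10 and follicular helper programmes, stood at 362, 548 and 547 CPM and 658, 601 and 956 CPM. Ikzf3, the transcription factor Aiolos, stood at 248, 401 and 235 CPM and 95.4, 147 and 54.0 CPM. Aiolos and its relative Helios thus differed in separation and in ratio of means (0.336 and 0.966), a difference between genes that was not tested.

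Interferon-stimulated genes were split. Of 50 in the table, 27 were consistently detected, 17 had a positive fitted change, and the median was 0.21 (0.08 with TMM factors from the consistently detected genes and 0.46 without Control replicate 2). Igtp, an interferon-induced GTPase, stood at 244, 362 and 485 CPM in Control and 639.8, 561 and 510.2 CPM with anti-PD-1. Ly6a, the surface antigen Sca-1, stood at 1143, 746 and 1219.8 CPM and 1354, 1579 and 1366 CPM. Psmb8, an immunoproteasome subunit, stood at 36.0, 86.7 and 52.6 CPM and 184, 129 and 123 CPM. These 3 were higher without overlap, and Gbp4, another interferon-induced GTPase, was lower at 708, 1089.8 and 949 CPM and 539, 324 and 706 CPM. For Gbp4, Control replicate 1 and anti-PD-1 replicate 3 were almost equal, and it overlapped after TMM scaling. Ly6e, which overlapped at 530.0, 255 and 234 CPM and 1304, 360.1 and 789 CPM, had the smallest unadjusted p of the list (0.00718, edgeR).

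Proliferation genes were seldom detected in every mouse. Of 33 S phase genes, 4 were consistently detected, among them Pcna, the DNA polymerase clamp, at 168, 156 and 111 CPM in Control and 100.2, 171 and 251 CPM with anti-PD-1. Slbp, which binds histone mRNA, was the only one separated, higher at 38.9, 15.9 and 8.50 CPM and 95.8, 76.3 and 48.5 CPM. Pola1, a subunit of DNA polymerase alpha, overlapped at 99.0, 38.9 and 45.6 CPM and 79.6, 167 and 11.8 CPM. The median of these 4 genes was 0.68, but that of all 25 tested S phase genes was -0.48. Summed over all 33, the list was lower with anti-PD-1, at 1885, 1127 and 1141 CPM in Control and 1045, 735 and 1112 CPM. Those sums did not overlap, by a narrow margin. Of 38 G2/M genes, 7 were consistently detected and 2 had a positive fitted change, with a median of -0.77 that was negative under every scaling tried (-1.02 to -0.52) and nearer 0 without anti-PD-1 replicate 1 (-0.26) or Control replicate 1 (-0.42). Top2a was lower without overlap. Tuba1b, a tubulin, overlapped at 389.5, 87.7 and 185 CPM and 182, 38.4 and 72.6 CPM, and Smc4, a condensin subunit, had the higher mean with anti-PD-1 at 175, 446.9 and 253 CPM and 354, 408 and 751 CPM. Over all 38 genes the sum was 2672 to 3634 CPM in Control and 1644 to 2372 CPM with anti-PD-1, without overlap. They did not overlap without Top2a either, at 3028, 2515 and 2358 CPM and 1515, 2024 and 2136 CPM.

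Of 38 translation factor genes, 30 were consistently detected, 14 had a positive fitted change, and 6 were lower without overlap while none was higher, against 4.11% and 5.32% of all consistently detected genes. Eif4b, a helper of the RNA helicase eIF4A, stood at 477, 348 and 419 CPM in Control and 126, 283 and 269.7 CPM with anti-PD-1. Eif4g2, a scaffold related to eIF4G, stood at 555, 383 and 664 CPM and 347, 344 and 218 CPM. Ncl, the nucleolar protein nucleolin, stood at 1911, 1183 and 1074 CPM and 919, 731 and 939 CPM. Eif1ax, Eif3a and Eif4a1 were the others, and Eif1ax and Ncl kept their separation after TMM scaling while Eif3a, Eif4a1, Eif4b and Eif4g2 did not. Npm1, a partner of nucleolin, had the lower mean at 1337, 784 and 570.3 CPM and 701, 409 and 224 CPM and overlapped. Dividing by library totals or leaving out anti-PD-1 replicate 2 made the list median more negative (-0.39 and -0.38, against -0.16), while leaving out Control replicate 1 made it 0.12.

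Of 90 ribosomal protein genes, 65 were consistently detected and 52 had a positive fitted change, with a median of 0.47. Without overlap 3 were higher, near the 5.32% of all consistently detected genes. In edgeR's test 5 had an unadjusted p under 0.05, all higher, against 3.1% of all consistently detected genes. Among these, TMM factors from the consistently detected genes gave 0.0254 for Rps24, 0.0816 for Rpl31, 0.147 for Rpl5 and 0.160 for Rpl4 (edgeR). Rpl4 stood at 1360.0, 981 and 1337 CPM in Control and 1508, 2219 and 1410.4 CPM with anti-PD-1, Rpl37a at 1915, 1173 and 1627 CPM and 2264, 1938 and 1941 CPM, and Rpl18 at 89.9, 113 and 148 CPM and 234, 335 and 216 CPM. Rps24, with the smallest unadjusted p of the list (0.00639, edgeR), overlapped at 2791, 1254 and 1978 CPM and 3031, 4219 and 2453 CPM. Control replicate 2 was the lowest library for Rpl4, Rpl37a and Rps24, and anti-PD-1 replicate 2 the highest for Rpl4, Rpl18 and Rps24. The list median was 0.13 with TMM factors from the consistently detected genes and -0.02 without anti-PD-1 replicate 2. Ribosomal protein genes have many processed pseudogenes, and reads that map to both were left uncounted, so their levels are uncertain. As a share of gene counts they made up 2.76% ± 0.791 in Control and 3.16% ± 0.590 with anti-PD-1 (SD, n = 3 each), an exact two-sided permutation p of 0.5.

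The medians of the mitochondrial and proteasome genes also moved when anti-PD-1 replicate 2 was left out, and moved less with some other settings. All 18 consistently detected respiratory chain genes encoded in the nucleus, of 85, had a positive fitted change and none was separated, with a median of 0.59 that was 0.11 without that library and 0.29 with TMM factors from the consistently detected genes. Sdhb, a subunit of succinate dehydrogenase, stood at 72.3, 28.3 and 42.7 CPM in Control and 45.6, 83.8 and 297 CPM with anti-PD-1, with 1 high library, anti-PD-1 replicate 3. For the 10 mitochondrial genome transcripts, all positive, the median was 0.55 and without that library -0.16. It was 0.35 without Control replicate 2 and 0.18 with TMM factors from the consistently detected genes. Transcript mt-Co1 stood at 10976, 9398 and 7463 CPM and 7339, 18173 and 9302 CPM, where the value of anti-PD-1 replicate 2 exceeded every other library. The short gene mt-Atp8 was separated, at 15.9, 27.3 and 30.2 CPM and 56.7, 112 and 51.3 CPM. Of 49 proteasome genes, 18 were consistently detected and 14 had a positive fitted change, with a median of 0.57 that was -0.19 without anti-PD-1 replicate 2. This median was 0.25 without Control replicate 3 and 0.23 with TMM factors from the consistently detected genes. Psma6 and Psmb8 were higher without overlap, and Psmb1, a core subunit, was lower at 242, 129 and 129 CPM and 25.8, 49.5 and 87.9 CPM.

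Energy, lysosome and cytoskeleton genes held few separated members. Of 24 glycolysis genes, 11 were consistently detected, 10 had a positive fitted change and none was separated, with a median of 0.36 (0.10 with TMM factors from the consistently detected genes and 0.19 without Control replicate 1). Gapdh stood at 1992, 2137 and 2436 CPM in Control and 2969, 2332 and 2015 CPM with anti-PD-1, and Slc2a1, the glucose transporter GLUT1, at 53.3, 201 and 299 CPM and 261, 188 and 437 CPM. Both overlapped. Of 32 lysosome and autophagy genes, 11 were consistently detected and 10 had a positive fitted change, with a median of 0.59 that was 0.13 without anti-PD-1 replicate 2. Ctsb, the protease cathepsin B, overlapped at 102, 142 and 86.7 CPM and 363, 251 and 63.1 CPM. In the actin cytoskeleton list, 36 of 40 genes were consistently detected and 25 had a positive fitted change. Arpc4, of the Arp2/3 complex, and Myh9, non-muscle myosin, were lower without overlap, Myh9 at 1667, 2027 and 1723 CPM and 1425, 1145 and 1342 CPM. Tmsb4x, the actin-binding thymosin beta 4, overlapped at 2407, 3453 and 3721 CPM and 4449, 4048 and 3402 CPM. Of 25 cholesterol synthesis genes only 2 were consistently detected, and neither was separated.

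Chaperone and RNA-binding protein lists likewise held few separated genes. In the heat shock list, 21 of 30 genes were consistently detected, 12 had a positive fitted change, and Hsph1, a co-chaperone of HSP70, was the only one separated, lower at 258, 367 and 162 CPM in Control and 110.1, 132 and 98.4 CPM with anti-PD-1. Dnaja1, another co-chaperone, overlapped at 319, 529.6 and 367 CPM and 151, 75.2 and 377 CPM. In the unfolded protein response list, 13 of 26 were consistently detected and 9 had a positive fitted change. Pdia4, a disulfide isomerase of the endoplasmic reticulum, was lower without overlap at 204, 247 and 234 CPM and 85.6, 179 and 79.8 CPM, and so was Calr, and both overlapped after TMM scaling. Among 44 splicing and RNA-binding genes, 36 were consistently detected and 22 had a positive fitted change. Neat1, a long non-coding RNA of nuclear paraspeckles, was higher without overlap at 453, 679.8 and 785 CPM and 917, 875 and 906 CPM, and the 3 anti-PD-1 libraries were nearly equal. Hnrnpa3 was lower without overlap at 1117, 966 and 1273 CPM and 595, 746 and 805 CPM.

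Some genes had little spread between mice. A coefficient of variation of at most 30% in both groups was found for 166 of the 2066 genes. Of these, 26 were higher and 25 lower without overlap (30.7% together, against 9.44% of all consistently detected genes), but genes chosen for a small spread within groups overlap less by construction, so this is no sign of larger differences. The ratio of means ran from 0.345 for Slc25a51 to 2.69 for Acap1. Only 5 had a mean at least 2-fold higher with anti-PD-1 (L1cam, Acap1, Vps13b, Pikfyve and Rpl18) and 6 at least 2-fold lower (Ep400, Eif1ax, Spty2d1, Nfkbiz, Mgea5 and Slc25a51). These genes were singled out after their values were seen. Acap1, a GTPase-activating protein of endosome recycling, stood at 102, 143 and 151 CPM in Control and 351, 344 and 369.7 CPM with anti-PD-1. L1cam, an adhesion molecule best known in neurons, stood at 101, 137 and 111 CPM and 276, 348 and 312 CPM. It overlaps Arhgap4 on the same strand in the annotation, and the part of that gene in its reads was not tested. Pikfyve, a lipid kinase of endosomes, stood at 68.1, 42.3 and 70.2 CPM and 156, 167 and 144 CPM. In these 3 genes the nearest libraries of the 2 groups differed by 2.02-fold to 2.29-fold, more than any 2 libraries within a group. On the lower side, Mgea5, the enzyme that removes O-GlcNAc from proteins, stood at 341, 274 and 254 CPM and 115, 103 and 125 CPM. Spty2d1, a histone chaperone, stood at 237, 218 and 279.7 CPM and 99.999, 116 and 73.2 CPM. Slc25a51, a mitochondrial carrier, stood at 161, 149 and 89.1 CPM and 49.9, 53.0 and 34.5 CPM. In edgeR's quasi-likelihood test, whose spread is shared over all genes, the unadjusted p of these 6 genes ran from 0.0223 to 0.447, and the adjusted p was 0.9998 for each.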

How the data were processed

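Gene read counts were deposited as 1 table for all libraries, with no normalization. TopHat2, HTSeq and the build GRCm38 are named in the submitters' processing notes, without versions or settings. No source states the annotation or filters. The deposited table is labelled firstStrand, and nothing further is stated about the strand option. The table's summary rows, which name no gene, were dropped: reads in no feature were 30.6% to 42.0% of each library's counts, reads not placed uniquely 24.3% to 28.9% and ambiguous reads 0.631% to 1.04%, leaving 32.9% to 39.5% in genes. CPM was computed over gene rows. The 6 libraries were fitted alone with edgeR 4.0.16 in R 4.3.3 (TMM factors, filterByExpr with a minimum count of 10, robust quasi-likelihood test, two-sided, Benjamini-Hochberg over 6848 genes, threshold 0.05). Log2 fold changes are anti-PD-1 over Control. The fits were tested on simulated data. Gene models came from GENCODE M21 by symbol (2008 of 2066 matched, 1961 protein coding) and promoters from RefSeq.

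Among consistently detected genes, the 12 higher and 12 lower with the smallest p and no overlap were named, then up to 3 members of each list with the smallest p, and Cd4, Icos, Ctla4, Pdcd1, Foxp3 and Il2ra; receptor segments, predicted genes and pseudogenes were left out. List members that did not overlap were named as well. Some genes that the rule selects are not reported here. The genes, lists and tests were chosen with earlier results of these data known. Alternatives were DESeq2 1.42.0, limma 3.58.1 (voom with quality weights, and trend), other factors and filters, all 9 libraries, the replicate number as a block, each library left out, feature classes left out and an adjusted threshold of 0.10. No label states that the replicate numbers pair mice, and the main fit did not use them. Same-numbered libraries did not deviate together (correlations 0.00677, -0.00463 and 0.0415), which cannot exclude a pairing with weak effects.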

Additional observations from a re-analysis of the deposited data

How the results depend on the processing

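The absence of calls among the consistently detected genes held under every alternative except voom with quality weights, which called 6; over all tested genes, where 0 passed, DESeq2 called 863 (221 higher, 642 lower), voom 6, the fit of all 9 libraries 6, no filter on low counts 1 and the replicate block 1, and leaving out each library gave 0 to 3. At an adjusted threshold of 0.10, edgeR with the settings of the report still called 0, while DESeq2 called 939, of which 1 was consistently detected. The cause of these differences was not tested. The 64 higher and 6 lower genes at an unadjusted p under 0.05 became 15 and 1 with DESeq2, 101 and 3 with RLE factors, 27 and 17 with library totals, 25 and 19 with TMM factors from the consistently detected genes, 38 and 29 with those genes alone in the fit, 67 and 16 with voom, 43 and 46 with limma trend, 3 and 0 with all 9 libraries, and 38 and 5 with the replicate block. The lower count was 10 for genes at 1 CPM in all libraries and 3 at 50 CPM. Leaving out each library gave 34 to 92 higher and 3 to 25 lower, with 34 and 25 without anti-PD-1 replicate 2. Of the 110 higher and 85 lower genes without overlap, TMM-scaled CPM gave 160 higher and 51 lower, and 63 and 49 were counted at 50 CPM; with 1 library fewer the counts were 182 to 235 and 162 to 209, since fewer libraries overlap less. The sign of the fitted log2 fold change turned for 10 of the 127 genes followed through the alternatives. With voom it was -0.25 for Btg1, -0.23 for Ctsc, -0.54 for Pola1, -0.11 for Srgn and -0.14 for mt-Nd1. With limma trend it was -0.094 for Btg1, -0.081 for Ikzf2, -0.084 for Pola1, -0.055 for Srgn and -0.046 for mt-Nd1. For Ikzf2 it was -0.053 with library totals and -0.084 with TMM factors from the consistently detected genes or those genes alone, and for mt-Nd1 -0.028 with either of the latter. Leaving out each library gave -0.046 to 0.85 for Btg1, -0.68 to 1.48 for Ctsc, -0.021 to 0.28 for Ikzf2, -0.18 to 1.93 for Ndufb8, -0.028 to 1.23 for Pfn1, -0.38 to 1.42 for Pola1, -0.30 to 1.82 for Psmc2, -0.30 to 0.61 for Srgn, -0.095 to 0.95 for mt-Co1 and -0.22 to 0.50 for mt-Nd1.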
